A study of Mus musculus with 6 samples.

Results

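The Hox genes of the mouse were examined in embryonic kidneys that had lost Sall1. Members were all genes whose symbol is Hox followed by a cluster letter from a to d and a paralog number, found through the RefSeq accession of each array probe. Of 39 such genes in the reference annotation, 36 had a matched probe, out of 17235 named genes on the array; Hoxc4, Hoxc6 and Hoxc11 were not analysed here. A gene was read from its brightest probe over the 6 arrays. Of the 36 genes, 32 were well above background on at least 2 arrays and entered the tests, among 26393 features in all.

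Kidneys were taken at E14.5 from mice of a hybrid of the 129 and C57BL/6 strains, and each sample was hybridised to its own one-colour Agilent array. The Six2Cre line, in which Cre driven by Six2 removes floxed Sall1 in nephron progenitors, gave 2 knockout arrays (replicates 7 and 9) and 2 control arrays (replicates 5 and 2). The inducible CreER line gave 1 knockout array (replicate 5, titled CreER/flox) and 1 control array (replicate 2, titled wt/flox), 48 hours after tamoxifen at E12.5. The labels state the genotype of each sample, and the line was read from the titles with the design text. The protocol text mentions tamoxifen without naming a line, so whether the Six2Cre mice received it is not settled. CreER is named for the knockout of that pair alone, so its presence and the loss of Sall1 cannot be told apart. Nothing in the labels tells if Cre was present in the Six2Cre controls, or if the arrays represent different embryos, so p-values measure the spread between these samples, which may be technical. Six2Cre knockout 7 and control 5 shared slide 1, and the other 4 arrays shared slide 2.

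Hox genes encode homeodomain transcription factors that give cells their position along the body axis. They lie in 4 clusters in which the order of the genes follows the order of their use: low paralog numbers act towards the head and early, high numbers towards the tail and late. In the kidney, the Hox11 paralogs (Hoxa11, Hoxc11 and Hoxd11) act with Eya1 and Pax2 in the metanephric mesenchyme and are needed for Six2 and Gdnf expression there. Hox10 paralogs are known for a role in the kidney stroma, and Hoxb7 is a marker of the ureteric bud.

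Sall1, the deleted gene, had log2 levels of -2.65 and -2.00 in the Six2Cre knockouts, against -1.38 and -0.77 in the Six2Cre controls. It had -4.06 in the CreER knockout and -1.28 in the CreER control. Every level here is a log2 signal relative to the 75th percentile of its array, so 0 stands for that percentile, and levels of different probes are not set against each other. Sall1 was 2.38-fold lower in the Six2Cre knockouts (limma adjusted p = 0.595, and 0.0281 with slide as a block and a trended, robust variance) and 6.86-fold lower in the CreER knockout, which has no replicate. It is not known here if the probe lies within the deleted stretch.

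The arrays had between 71.8% and 82.9% of probes well above background. The CreER knockout stood apart, with the lowest share and a spread of negative controls of 4.01 intensity units, against 1.46 to 1.61 on the other arrays. Six2Cre control 2 also stood apart: 13 of 14 muscle genes were higher on it than on any other array, with a median of 16.3-fold over the other arrays. No probe was saturated, and Pearson correlations between arrays over all probes lay between 0.976 and 0.992. With so few arrays, their number sets how precise each value can be.

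Genes of all 4 clusters gave signal in the kidney, and those not detected had paralog numbers 12 or 13. Of the 32 tested genes, 31, all but Hoxb1, were well above background on all 6 arrays. Hoxb13, known from prostate, Hoxc12, and Hoxc13, which acts in hair and nails, were well above background on no array. Hoxa13, which patterns the hindgut and genital tubercle, passed on Six2Cre knockout 9 alone. It had log2 levels of -7.70 and -6.76 in the Six2Cre knockouts, against -8.29 and -8.61 in the controls, and its other probe was well above background on no array, so no fold is given. Hoxd12 and Hoxd13, which shape the digits, were close to the limit at 2.06 to 4.92 and 1.04 to 5.87 times the dimmest well-above-background signal of their array. The other probe of Hoxd13 was well above background on no array.

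No Hox gene passed the test in the Six2Cre comparison. With limma and Benjamini-Hochberg adjustment over all features, 0 of 32 Hox genes and 0 of 26393 features were called. At an unadjusted p under 0.05 the test gave 1 Hox gene, Hoxb9, with the lower mean in the knockouts; over all features it gave 712 lower (2.70%) and 954 higher (3.61%). Of the 32 genes, 22 had a lower mean in the knockouts and 10 a higher one, with a median log2 difference (knockout minus control) of -0.12; over all features 46.1% had a lower mean and the median was 0.03. Both knockouts lay below both controls for 10 of 32 Hox genes, against 12.6% of all features, and above them for 4 of 32, against 17.6%. Within slides, 15 Hox genes were lower in both Six2Cre pairs, against 24.4% of all features, and 8 were higher in both, against 34.7%. With slide as a block and a trended, robust variance, 323 features (1.22%) were called lower and 304 (1.15%) higher, and Hoxb9 was the Hox gene among them.

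**Figure D1:**
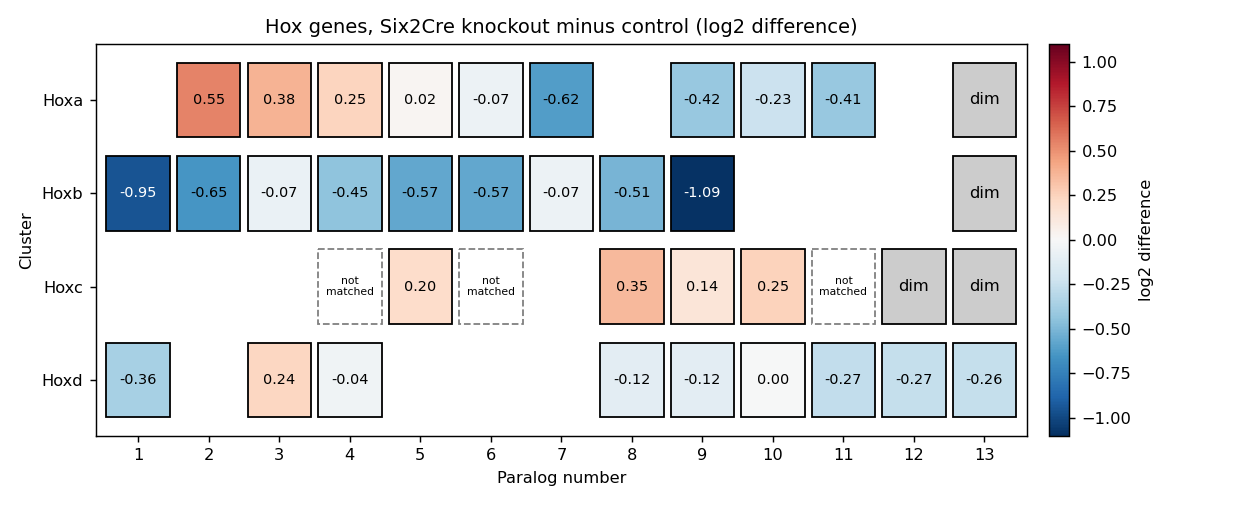
Log2 difference of the Six2Cre knockouts minus the controls for each Hox gene shown, by cluster (rows) and paralog number (columns), from 2 arrays a group. All 9 Hoxb genes are below 0, all 4 Hoxc genes are above 0, and grey boxes mark genes well above background on fewer than 2 arrays.

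The Hoxb cluster had lower means in the Six2Cre knockouts for 9 of 9 tested genes, with a median log2 difference of -0.57. The medians of the pairs were -0.58 on slide 1 and -0.56 on slide 2. Both knockouts lay below both controls for 6 of the 9, against 12.6% of all features. Hoxb1, among the 6, was not well above background on Six2Cre knockout 7. Its difference was -0.95, and -0.16 with normexp background correction. The CreER pair differed little for the 9 Hoxb genes, with 5 lower, 4 higher and a median of -0.01. That CreER median was 0.13 with normexp background correction. Without Six2Cre control 2, the Six2Cre median of the cluster was -0.37.

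Hoxb9, which acts in the thoracic skeleton, had log2 levels of 0.94 and 1.03 in the Six2Cre knockouts, against 2.16 and 1.99 in the Six2Cre controls. The CreER knockout had 1.76 and the CreER control 1.79. Both Six2Cre knockouts were thus below the other 4 arrays, which ran from 1.76 to 2.16. The difference was -1.09 (SE 0.246), or 2.13-fold lower, with a limma adjusted p = 0.386, and 0.0162 with slide as a block and a trended, robust variance. The other probe of Hoxb9 read the slide 1 pair differently, at -0.22 against -1.22 by the brighter probe, and the slide 2 pair alike, at -1.13 against -0.96. By that probe the Six2Cre difference was -0.68, with an adjusted p of 0.352 in the fit that called the brighter probe, an alternative added after seeing the data. Over all settings tried, the adjusted p of Hoxb9 ran from 0.0162 to 1.00. The difference between the lines, CreER minus Six2Cre, was 1.06 for the brighter probe (limma adjusted p = 1).

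Hoxb2, known from hindbrain patterning, had log2 levels of 2.09 and 1.70 in the Six2Cre knockouts, against 2.72 and 2.37 in the Six2Cre controls. The CreER knockout had 2.23 and the CreER control 2.47, so that each knockout was below its own control. The Six2Cre difference was -0.65 (SE 0.294, limma adjusted p = 0.924). With genotype fitted over all 6 arrays, and line and slide as covariates, it was -0.51 (limma adjusted p = 0.449).

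Hoxb5, Hoxb6 and Hoxb8 act in the trunk. Hoxb5 had log2 levels of 0.49 and 0.91 in the Six2Cre knockouts, against 1.07 and 1.47 in the controls, with 1.57 in the CreER knockout and 1.49 in the CreER control. Hoxb6 had 2.35 and 2.64 in the Six2Cre knockouts, against 2.82 and 3.31 in the controls, with 3.30 in the CreER knockout and 3.31 in the CreER control. Both genes were low on the Six2Cre knockouts without overlap, by log2 differences of -0.57 each, while the CreER differences were 0.08 and -0.01. Neither was called (limma adjusted p = 1.00 for each), and the differences were -0.36 for Hoxb5 without Six2Cre knockout 7 and -0.33 for Hoxb6 without Six2Cre control 2. Hoxb8 had 0.48 and 0.91 in the Six2Cre knockouts, against 0.65 and 1.76 in the controls, with 1.59 in the CreER knockout and 1.53 in the CreER control. Its groups overlapped, and its difference of -0.51 was 0.04 without Six2Cre control 2.

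Hoxb1, the most anterior gene of the cluster, was dim. It had log2 levels of -8.50 and -7.12 in the Six2Cre knockouts, against -7.09 and -6.63 in the controls, and was not well above background on Six2Cre knockout 7. The CreER knockout had -6.20 and the CreER control -6.13. Hoxb7, whose promoter is widely used to mark the ureteric bud, had 3.35 and 3.06 in the Six2Cre knockouts, against 3.15 and 3.39 in the controls. Its groups overlapped, with a difference of -0.07 (SE 0.266, limma adjusted p = 1.00), and the sum over ureteric bud markers was 111 and 92.2 in the knockouts and 69.9 and 77.5 in the controls, in units of the 75th percentile. That sum weighs bright genes such as Krt18, Calb1 and Krt8 most. Of the 13 markers, 9 had higher and 4 lower means in the Six2Cre knockouts, with a median log2 difference of 0.50. The lower ones were Ret, Wnt11, Gata3 and Tfap2a. The part of the ureteric bud in the Hoxb7 value was not tested.

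Promoters of Hoxb1, Hoxb4 and Hoxb8 are shown because these genes were lower in both Six2Cre pairs and the RefSeq table (GRCm38.p6) held their start. The other Hoxb genes of that kind had no entry in it. Each line is the 250 bases before the start, 5′ to 3′ on the gene's strand; capitals mark TAAT, the core of homeodomain sites, and TGATNNAT, the form bound by Hox proteins with TALE cofactors, on either strand, and the 2 motifs can overlap. TAAT stood in 54.9% of 32851 promoters and in those of 15 of 21 Hox genes; TGATNNAT stood in 7.68% of promoters and in those of 4 of 21 Hox genes, where a gene with several starts counted if any of them held the motif.
Hoxb1, chr11:96365508-96365757, plus strand: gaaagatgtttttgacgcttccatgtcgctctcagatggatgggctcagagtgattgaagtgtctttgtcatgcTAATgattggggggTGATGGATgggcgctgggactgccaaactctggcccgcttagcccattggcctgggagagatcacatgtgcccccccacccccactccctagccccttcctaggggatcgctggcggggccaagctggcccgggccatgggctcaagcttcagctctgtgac
Hoxb4, chr11:96318017-96318266, plus strand: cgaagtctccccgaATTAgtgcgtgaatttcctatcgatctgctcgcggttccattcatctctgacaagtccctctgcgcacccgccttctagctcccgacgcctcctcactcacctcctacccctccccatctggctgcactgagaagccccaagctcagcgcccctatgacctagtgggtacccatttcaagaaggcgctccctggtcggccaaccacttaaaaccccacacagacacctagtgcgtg
Hoxb8, chr11:96281655-96281904, plus strand: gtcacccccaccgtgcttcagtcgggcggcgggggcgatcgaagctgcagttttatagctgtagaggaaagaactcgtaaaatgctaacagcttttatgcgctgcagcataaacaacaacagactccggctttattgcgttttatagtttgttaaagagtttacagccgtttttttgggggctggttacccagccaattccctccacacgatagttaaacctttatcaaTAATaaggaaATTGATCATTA
The Hoxb8 promoter held TTTAT, the core bound by caudal factors, 6 times, and 37.3% of all promoters held it at least once. Matches describe these windows and do not show that a factor binds there.

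**Figure D2:**
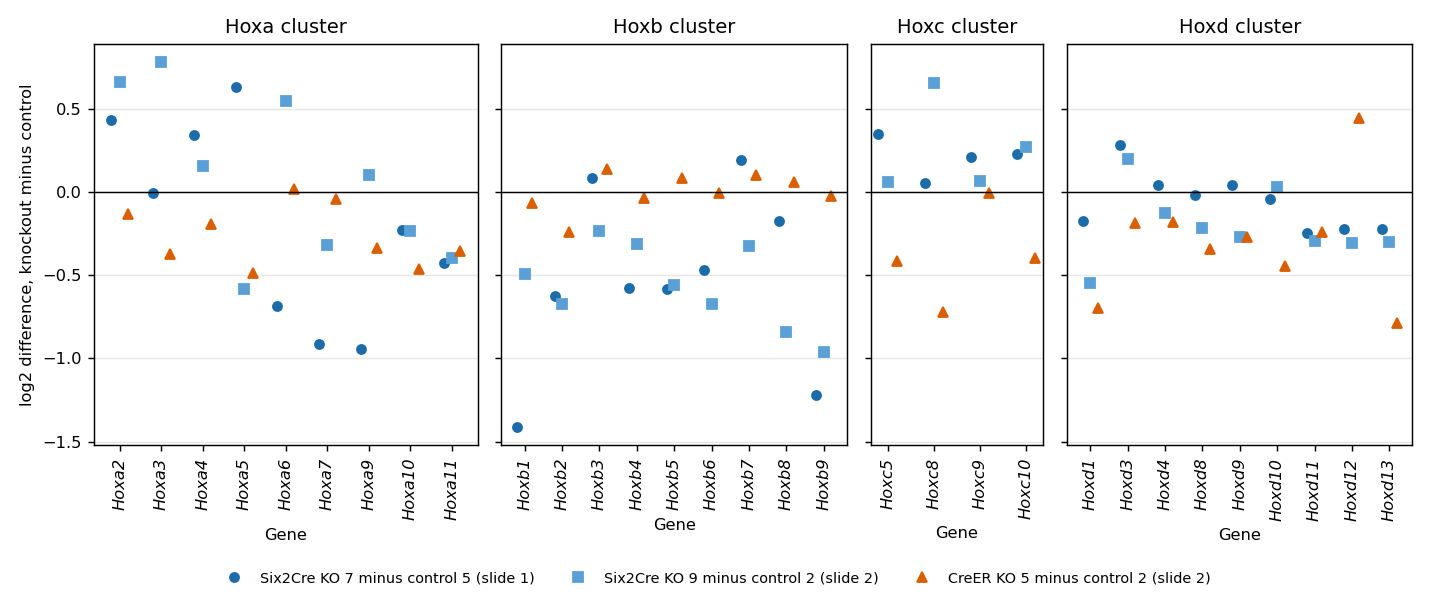
Log2 difference of knockout minus control within each of the 3 pairs, for tested genes of each cluster in order of paralog number. The Six2Cre pairs (circles for slide 1, squares for slide 2) lie below 0 for 7 of 9 Hoxb genes, and the CreER pair (triangles) lies near 0 for that cluster and below 0 for all 4 Hoxc genes.

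Means in the Hoxa cluster went both ways in the Six2Cre comparison, and no Hoxa gene was called. The means of Hoxa2, Hoxa3 and Hoxa4 were higher in the knockouts and those of Hoxa7, Hoxa9, Hoxa10 and Hoxa11 lower, and the cluster's median was -0.02 (0.0083 with quantile normalization), with 5 lower and 5 higher. The median changed sign between slides, with -0.12 on slide 1 and 0.13 on slide 2. Of the genes named, Hoxa3 (-0.01 and 0.78) and Hoxa9 (-0.94 and 0.10) also changed sign between slides. By its other probe the Six2Cre difference of Hoxa3 was 0.03. In the CreER pair 9 of 10 were lower, with a median of -0.26.

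Hoxa2, which acts in the hindbrain and branchial arches, had log2 levels of -0.42 and -0.82 in the Six2Cre knockouts, against -0.85 and -1.48 in the controls. The levels were -1.31 in the CreER knockout and -1.17 in the CreER control. Both Six2Cre knockouts lay above both controls, narrowly so (difference 0.55, SE 0.341, limma adjusted p = 1.00), and the difference was 0.23 without Six2Cre control 2. Hoxa7, a trunk gene, had 1.19 and 1.83 in the Six2Cre knockouts, against 2.10 and 2.15 in the controls, and 1.97 in the CreER knockout and 2.01 in the CreER control. Knockout 7 was the low array (difference -0.62, SE 0.318, limma adjusted p = 1.00), and the difference was -0.29 without it and -0.94 without knockout 9.

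The measured Hox11 paralogs, Hoxa11 and Hoxd11, were lower in all 3 pairs by similar amounts. Hoxa11 had log2 levels of 2.33 and 2.29 in the Six2Cre knockouts, against 2.76 and 2.69 in the Six2Cre controls. In the CreER line, the knockout had 2.45 and the control 2.80. Each of the 3 knockouts lay below each of the 3 controls, with pair differences of -0.43, -0.40 and -0.36. The Six2Cre difference was -0.41 (SE 0.239, limma adjusted p = 1.00), and with genotype over all 6 arrays it was -0.40 (SE 0.110, limma adjusted p = 0.444).

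Hoxd11 had log2 levels of -1.05 and -1.02 in the Six2Cre knockouts, against -0.80 and -0.73 in the Six2Cre controls. In the CreER line, the knockout had -0.91 and the control -0.66. Again each knockout lay below each control, with pair differences of -0.24, -0.29 and -0.24. With genotype over all 6 arrays the difference was -0.26 (limma adjusted p = 0.554). Over all features, 14.3% were lower in all 3 pairs and 20.0% higher in all 3, against 12 and 0 of 32 Hox genes.

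Promoters of both measured Hox11 genes are shown because their knockouts lay below all controls in both lines. By their brightest probes Hoxa7, Hoxb2 and Hoxb9 had that order too, so it was not particular to Hox11. The Hoxa7 promoter held neither TAAT nor TGATNNAT in its 250 bases and is not shown. Hoxd11 had 2 RefSeq starts, and both are given. Build, motifs and capitals are as above.
Hoxa11, chr6:52245811-52246060, minus strand: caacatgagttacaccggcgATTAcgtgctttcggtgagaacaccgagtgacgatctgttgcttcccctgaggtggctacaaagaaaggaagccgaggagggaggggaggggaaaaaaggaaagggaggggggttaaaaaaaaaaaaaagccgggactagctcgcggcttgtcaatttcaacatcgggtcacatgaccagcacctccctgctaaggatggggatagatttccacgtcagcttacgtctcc
Hoxd11, chr2:74679308-74679557, plus strand: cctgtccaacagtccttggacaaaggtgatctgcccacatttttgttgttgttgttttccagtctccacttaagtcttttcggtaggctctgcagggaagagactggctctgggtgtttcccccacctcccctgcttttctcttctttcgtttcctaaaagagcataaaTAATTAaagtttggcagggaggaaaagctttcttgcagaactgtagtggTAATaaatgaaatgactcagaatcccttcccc
Hoxd11, chr2:74682073-74682322, plus strand: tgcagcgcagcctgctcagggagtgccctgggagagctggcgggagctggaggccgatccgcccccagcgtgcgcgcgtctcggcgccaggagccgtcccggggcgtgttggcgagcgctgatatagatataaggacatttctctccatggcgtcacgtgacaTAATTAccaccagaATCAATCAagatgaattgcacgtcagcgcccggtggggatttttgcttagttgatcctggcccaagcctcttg

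**Figure D3:**
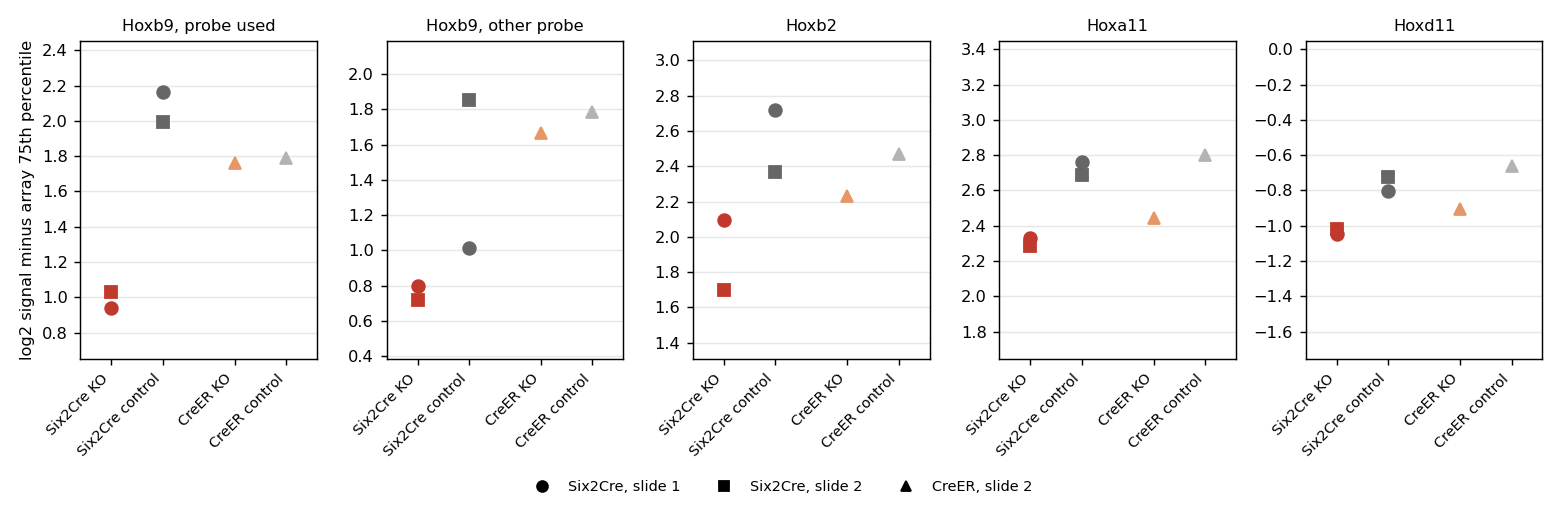
Log2 level (relative to the 75th percentile of the array) on every array for both probes of Hoxb9 and for Hoxb2, Hoxa11 and Hoxd11, with knockouts left of controls within each line; each panel has its own axis. For Hoxb2, Hoxa11, Hoxd11 and the Hoxb9 probe used, all 3 knockouts lie below all 3 controls. The other Hoxb9 probe puts Six2Cre control 5 near the Six2Cre knockouts.

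The paralogs of groups 9 and 10 had overlapping Six2Cre groups, apart from Hoxb9. Hoxa9 had log2 levels of 0.93 and 1.40 in the Six2Cre knockouts, against 1.88 and 1.30 in the controls. Hoxa10 had 2.14 and 1.74 in the Six2Cre knockouts, against 2.37 and 1.97 in the controls. Each had overlapping groups, and each was lower in the CreER knockout than in its control, by log2 differences of -0.34 and -0.46. Hoxd9 had 0.75 and 1.05 in the Six2Cre knockouts, against 0.71 and 1.32 in the controls. Hoxd10 had 1.33 and 1.05 in the Six2Cre knockouts, against 1.37 and 1.01 in the controls. Both overlapped as well, and both were lower in the CreER pair, at -0.27 and -0.45.

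The Hoxc cluster had higher means in the Six2Cre knockouts for 4 of 4 tested genes and lower values in the CreER knockout for 4 of 4, with medians of 0.23 and -0.41. Hoxc9, which acts in thoracic motor neurons, had log2 levels of 1.67 and 2.08 in the Six2Cre knockouts, against 1.46 and 2.01 in the controls, with 2.00 in both CreER arrays. Hoxc10, known from lumbar motor neurons, had 0.23 and 0.55 in the Six2Cre knockouts, against 0.00 and 0.28 in the controls. The CreER knockout had -0.16 and its control 0.24. For Hoxc8, known from brachial motor neurons, the CreER minus Six2Cre difference was -1.07 (limma adjusted p = 1). No Hox gene had an unadjusted p under 0.05 for the difference between lines, against 617 of 26393 features (1.16% lower and 1.17% higher), and limma called 0 of either.

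The Hoxd cluster had lower means in the Six2Cre knockouts for 8 of 9 genes, with a median of -0.12 (0.092 without Six2Cre knockout 9), and lower values in the CreER knockout for 8 of 9, with a median of -0.27. Hoxd1, known from sensory neurons, had log2 levels of -3.46 and -4.48 in the Six2Cre knockouts, against -3.28 and -3.93 in the controls. The levels were -4.59 in the CreER knockout and -3.89 in its control. The groups overlapped in the Six2Cre line, while every pair was lower within its slide; with genotype over all 6 arrays the difference was -0.47 (limma adjusted p = 0.473). By that fit 0 Hox genes and 0 of 26393 features were called, with 3 Hox genes (Hoxa11, Hoxb2 and Hoxd1, each lower) and 2556 features (3.91% lower and 5.77% higher) at an unadjusted p under 0.05.

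In the CreER pair no tested Hox gene differed by 2-fold or more; the values ran from -0.79 for Hoxd13 to 0.44 for Hoxd12, both dim. Of 25924 features well above background on either array, 2.21% passed 2-fold in the lower direction and 1.38% in the higher one. Of the 32 Hox genes 26 were lower, with a median of -0.19, against 51.1% of all features and a median of -0.01.

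**Figure D4:**
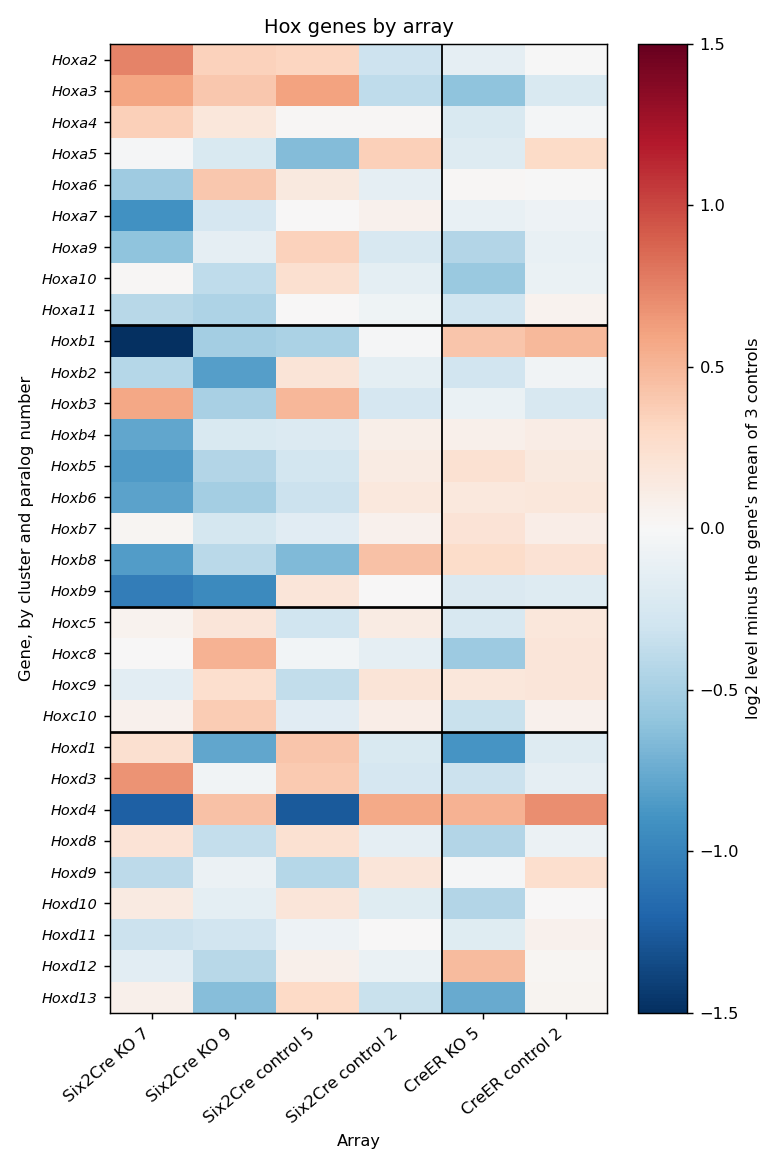
Log2 level of tested Hox genes (rows, by cluster and paralog number) on each array (columns), minus the gene's mean over the 3 controls; the colour scale ends at 1.5 either way. Hoxb9 is low on both Six2Cre knockouts, and Hoxd4 is low on both slide 1 arrays whatever the genotype.

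Some Hox genes differed more between slides than between genotypes. Hoxd4 had log2 levels of 2.13 and 3.79 in the Six2Cre knockouts, against 2.09 and 3.91 in the controls, the first of each on slide 1, and 3.87 and 4.05 in the CreER knockout and control. The slide 2 minus slide 1 difference was 1.74, a size that 1.98% of features passed. The median size of that difference was 0.39 over Hox genes and 0.34 over all features, while for Hoxb9 it was -0.04.

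**Figure D5:**
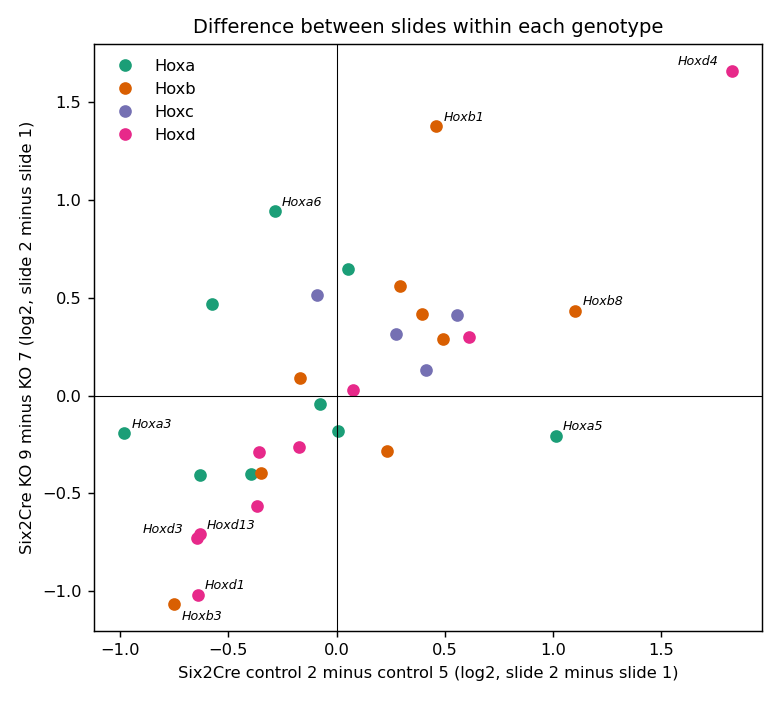
Difference between slides (log2, slide 2 minus slide 1) within the Six2Cre knockouts (vertical axis) and within the Six2Cre controls (horizontal axis), 1 point for each Hox gene shown. Hoxd4 stands at the upper right, and Hoxb1 and Hoxa6 differ more between slides among the knockouts than among the controls.

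For a list of Hox11 partners and targets, 12 of 12 measured genes had lower means in the Six2Cre knockouts, with a median of -0.65. In limma 0 were called and 5 were lower at an unadjusted p under 0.05, against 2.70% of all features; with slide as a block and a trended, robust variance 4 were called lower, against 1.22%. These were Six2, the nephron progenitor factor, at -1.60 (adjusted p = 0.00719), Eya1, its phosphatase partner, at -1.06 (0.0152), Itga8, an integrin that supports Gdnf expression, at -1.12 and -0.88 in the pairs (0.0209), and Lhx1, an early nephron factor, at -1.59 (0.00794). In the main limma fit the adjusted p-values of these genes were 0.226 for Six2, 0.477 for Eya1, 0.574 for Itga8 and 0.608 for Lhx1. The CreER pair had 6 lower and 6 higher. The list was chosen with earlier results known. It shares genes with the nephron progenitor markers, and Ret with the ureteric bud markers.

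Of the TALE cofactors, which bind DNA with Hox proteins, 4 of 9 had lower and 5 higher means, with a median of 0.02, none called by either fit and none under 0.05 before adjustment in limma. Meis1 was at 0.59 and Pbx4 at -0.48. Of 21 measured Polycomb and trithorax genes, which hold Hox clusters off or on, 17 had lower and 4 higher means, the median over all 21 was -0.07, none was called by either fit, and none was under 0.05 before adjustment in limma.

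Of 16 measured retinoic acid and caudal genes, which set Hox borders in the early embryo, 5 had lower and 11 higher means. Cyp26a1, which breaks down retinoic acid, had log2 levels of -5.70 and -5.38 in the Six2Cre knockouts, against -3.43 and -3.00 in the controls, and -6.94 in the CreER knockout against -2.96 in the CreER control. The Six2Cre difference was -2.32 (SE 0.295, limma adjusted p = 0.141, and 0.0123 with slide as a block and a trended, robust variance). Its spot was not well above background on the CreER knockout, so that fold is at least 11-fold lower. Crabp1, a retinoic acid binding protein, was at 1.52 (limma adjusted p = 0.394, and 0.00944 by the second fit) and Crabp2 at 1.01 (0.506, and 0.0637 by the second fit). Cdx1, Cdx2 and Cdx4 were well above background on no array. Among the neighbours of the clusters and their noncoding RNAs, 6 of 21 listed were measured, and Skap1, beside Hoxb, was at -1.08 (limma adjusted p = 0.456, and 0.0236 by the second fit).

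Marker lists of the kidney's cell types also moved between the groups; sums are in units of the 75th percentile. Nephron progenitor markers summed to 19.4 and 19.5 in the Six2Cre knockouts, against 44.6 and 51.9 in the controls, and to 35.7 in the CreER knockout against 52.5 in its control. Stromal markers summed to 205 and 183 in the Six2Cre knockouts, against 126 and 114 in the controls, and to 108 in the CreER knockout against 102 in its control. In the Six2Cre line both lists moved alongside the Hoxb and Hox11 values. In the CreER pair the Hoxb median was -0.01, and the progenitor sum was lower in the knockout. That sum weighs bright genes most, and Cited1 had the largest difference of the 12 progenitor markers in that pair, at -2.85. Of these markers 8 were lower and 4 higher in the CreER knockout, with a median log2 difference of -0.355. Hoxa11 and Hoxd11 differed by -0.36 and -0.24 in that pair, with similar stromal sums. The part of the cell types in the Hox values was not tested. In whole kidneys, fewer cells of a type and less RNA per cell cannot be told apart. Muscle markers summed to 3.66 and 3.09 in the Six2Cre knockouts, against 3.35 and 44.9 in the controls; without Six2Cre control 2, the median over all Hox genes was -0.22.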

How the data were processed

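Per the file headers, the deposited processed signal is a linear intensity from Feature Extraction 10.5.1.1, with background subtraction and detrending but no scaling between arrays; the deposited series table held the same intensity. Per the labels, 0.25 ug of RNA was labelled per sample. Control spots and outlier flags were left out, which kept 40987 of 41174 probes, and spots of a probe were averaged. Probes took names through RefSeq accessions (24999 probes). Signals were taken to log2 and each array's 75th percentile was subtracted. Features well above background on at least 2 arrays were tested with limma 3.58.1 in R 4.3.3 (lmFit, eBayes, two-sided, Benjamini-Hochberg at 0.05); scripts were tested on simulated data. The spread of the single CreER arrays was taken from the Six2Cre groups. Figures used matplotlib 3.10.9 in Python 3.11.15. The members and lists were chosen with earlier results of these data known. Values on every array were given for Hox genes at 0.5 log2 units or more with the same sign in both slide pairs, for paralog groups 9 to 11, for Hoxb7 and for any with an unadjusted p under 0.05; Hoxd4 and Hoxc8 were added after their values were seen. Of each list, at most 4 genes at 1 log2 unit or more were eligible; Meis1 and Pbx4 were chosen after their values were seen. Individual values of some genes in the counts and medians are not reported here, in the text or the figures.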

Additional observations from a re-analysis of the deposited data

How the results depend on the processing

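Within each line the knockout and control arrays share no replicate numbers, so arrays could be paired only by slide. The main fits of the Six2Cre comparison and of the difference between lines held no slide term. For these, slide as a block was an alternative, while genotype over all 6 arrays had line and slide as covariates. Calls over all features stayed at 0 in the Six2Cre comparison and in the difference between lines under every alternative run, except 627 in the Six2Cre comparison with slide as a block and a trended, robust variance, Hoxb9 among them. Genotype over all 6 arrays gave 36 calls with normexp background correction and 12 with a trended, robust variance, none of them Hox genes. Leaving out 1 array at a time gave 0 calls in each. The Hoxb median moved to -0.53 with normexp and to -0.54 with no filter or with genes well above background on all arrays, and ran from -0.77 to -0.36 leaving out 1 array at a time. The all-Hox median was -0.25 within slide 2 and ran from -0.22 to -0.051 leaving out 1 array. The Hoxa median was 0.0083 with quantile normalization, 0.023 with no filter and 0.13 within slide 2, and ran from -0.16 to 0.045. The Hoxc median was 0.18 with the mean of all kept probes and 0.17 within slide 2, and ran from 0.055 to 0.40; the Hoxd median ran from -0.25 to 0.092. In the CreER pair the Hoxb median was 0.13 with normexp and -0.026 with quantile normalization, and the Hoxc median was -0.30 with normexp. Among the 18 Hox genes whose values on every array were given by rule, leaving out 1 array turned the sign of 6, whose differences ran from -0.21 to 0.076 for Hoxb7, -1.06 to 0.044 for Hoxb8, -0.14 to 0.42 for Hoxc9, -0.87 to 0.15 for Hoxd1, -0.42 to 0.19 for Hoxd9 and -0.18 to 0.18 for Hoxd10. Hoxb9 ran from -1.18 to -1.01. The causes were not tested. The median of all features was 0.03, 0.01 with normexp and 0.02 with quantile normalization. Genes near background, such as Hoxb1, Hoxd12 and Hoxd13, are the least certain.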

Other observations

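Of 7 Hox genes with more than 1 kept probe, the Six2Cre difference had the same sign by every probe for 7. The other marker lists had these medians in the Six2Cre comparison: -0.97 for early nephron and podocyte genes, -2.35 for proximal tubule, 0.02 for endothelium, 0.64 for macrophage, -0.27 for neural genes, -0.43 for adrenal, 0.20 for gonad and germ cells, -0.53 for gut and 0.23 for cartilage and axial skeleton. The last 4 lists held 7, 5, 4 and 5 measured genes. The adrenal median was -0.31 on slide 1 and 0.03 on slide 2. In the gut list 3 genes were lower and 1 higher, with Vil1 at -4.06 and Isx at 1.27.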
